A study of Caenorhabditis elegans with 139 samples.

Results

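The transcripts described here are 59 messenger RNAs of the nematode Caenorhabditis elegans that were abundant in single embryos around the 4-cell stage and nearly gone by 100 min later. They are 59 of 20687 genes in the table. They were selected on measured values: a mean of at least 100 CPM (a count normalized to the sum over genes in its embryo) over the 8 embryos of -50 to 10 min, and means over the 8 embryos of 70 to 100 min and over 17 embryos of 300 to 390 min that were each at most 12.5% of that start mean. Of 2570 genes that reached 100 CPM at the start, 88 met the limit at 70 to 100 min, and 29 of those were above it again at 300 to 390 min and are not included. Levels in these 3 windows chose the genes and are therefore given as a description, without tests. Tests of change were made only between embryos of other windows. A check for single outlying embryos, given near the end, includes windows of the rule and is a description.

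The study measured 139 single embryos, each cut out of an adult hermaphrodite, washed in bleach, incubated at 20 °C, frozen and read by CEL-Seq, a method that amplifies RNA linearly and counts the 3′ ends of polyadenylated transcripts. The labels give each embryo a time from -50 to 840 min relative to the 4-cell stage, with no strain, mutation or treatment. For this account the embryos fall into windows of -50 to 10 min (8 embryos), 20 to 30 min (9), 40 to 60 min (3), 70 to 100 min (8), 110 to 140 min (8), 150 to 190 min (5), 200 to 290 min (30), 300 to 390 min (18), 400 to 590 min (25) and 600 to 840 min (25). Replicates within a window are single embryos that also differ in age, so the spread includes both.

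In C. elegans the oocyte is loaded with messenger RNA by the mother, and the first divisions run on that supply while transcription of the embryo's own genome begins. Many of the maternal messages encode RNA-binding proteins that hold other maternal messages silent, place cell fates along the axis and keep germline separate from soma, and many are removed soon afterwards, first from the somatic cells. Decay of a message and dilution by new transcripts both lower its share of a library. Because whole embryos were read, fewer cells that hold a transcript and less of it per cell cannot be told apart.

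Gene counts per embryo ranged from 12338 to 4557314 with a median of 692649. The sample numbers fall into 5 stretches, 1 to 50, 51 to 70, 71 to 82, 83 to 94 and 95 to 139, and the labels name no batch. The 0 min embryo with number 97, the 20 and 30 min embryos with numbers 99 and 100 and the 30 min embryo with number 85 were shallow, with 30049, 27138, 23630 and 43602 gene counts. Embryos 61, 65 and 70 (200, 340 and 400 min) had 5.72, 15.2 and 18.1 gene counts per spike-in count, against window medians of 220 or more. Adult yolk protein genes, a marker of adult intestine, took 4.38%, 5.37% and 4.82% of gene counts in those 3 embryos and 5.07% in the 790 min embryo, against 0.00333% to 0.157% in the -50 to 10 min embryos. Sperm genes took at most 0.0501% in any embryo.

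The 59 transcripts together made up 3.03 ± 0.974% of gene counts at -50 to 10 min (SD, n = 8), with a range of 2.01% to 5.11%. The share averaged 2.06 ± 1.1% at 20 to 30 min (n = 9) and 0.961 ± 0.528% at 40 to 60 min, where the 3 embryos had 1.54%, 0.823% and 0.515% in order of age. It then averaged 0.275 ± 0.105% at 70 to 100 min (n = 8), 0.245 ± 0.14% at 110 to 140 min (n = 8) and 0.102 ± 0.0173% at 150 to 190 min (n = 5). Every embryo of 70 min or later up to 190 min was below every embryo of 30 min or earlier. After 190 min the share had a median of 0.111% at 200 to 290 min, 0.0975% at 300 to 390 min, 0.148% at 400 to 590 min and 0.146% at 600 to 840 min. The highest late values, 1.05%, 0.998%, 0.728% and 0.721%, belonged to embryos 61, 65 and 70 and to the 790 min embryo, the 4 with the highest yolk shares. Without embryos 61, 65 and 70 the 200 to 290 min mean was 0.131 ± 0.0587%, against 0.161 ± 0.177% with all 30 embryos.

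**Figure D1:**
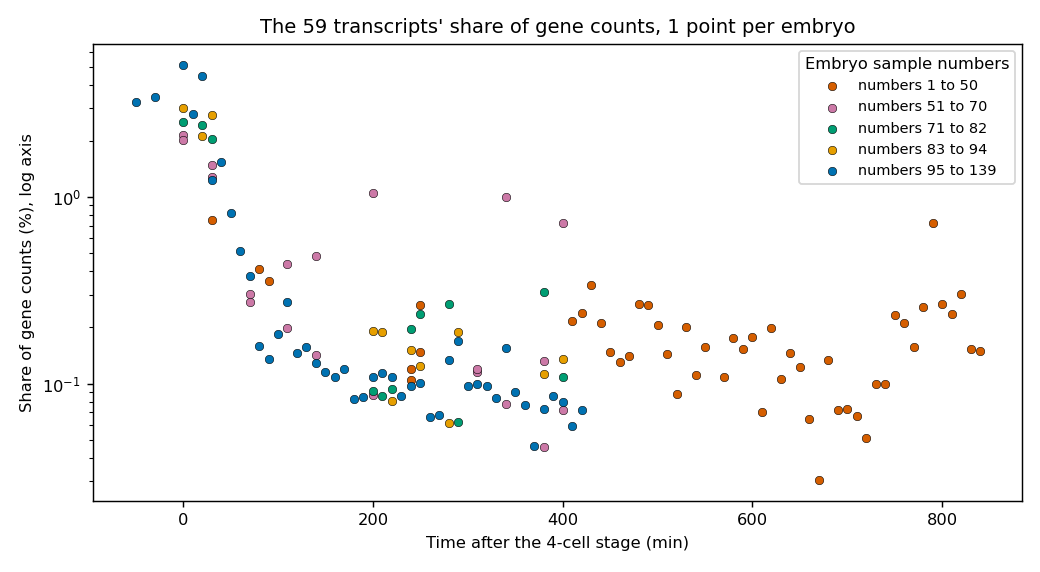
Share of gene counts taken by the 59 transcripts (percent, log axis) against time after the 4-cell stage, 1 point per embryo, coloured by stretch of sample numbers. The share lies between 2.01% and 5.11% up to 10 min, is 0.515% in the 60 min embryo, and is at most 0.482% from 70 min on except in the 4 embryos of highest yolk share, at 0.721% to 1.05%.

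Per transcript, the median level left relative to the start mean was 62.4% at 20 to 30 min, 37.2% at 40 to 60 min, 10.2% at 70 to 100 min, 7.99% at 110 to 140 min and 2.68% at 150 to 190 min. The other 2511 genes above 100 CPM at the start had medians of 93.0%, 91.3%, 59.0%, 55.4% and 59.3% in the same windows. The gap at 70 to 100 min follows from the rule. All these shares divide by the start mean, which the rule also used, so a start mean raised by 1 embryo lowers them all. At 20 to 30 min 15 of the 59 were at or under 50% of their start level and 5 were at or above 100%. Without embryos under 50000 gene counts these became 16 and 2. Of the other abundant genes 4.62% were at or under 50% in that window, and their upper quartile was 114%. At 40 to 60 min 46 were at or under 50% (42 without embryos under 50000 gene counts), against 23.7% of the other abundant genes. Each of the 59 had at least 1 count among the 5 embryos of 150 to 190 min, and 50 had counts in all 5.

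**Figure D2:**
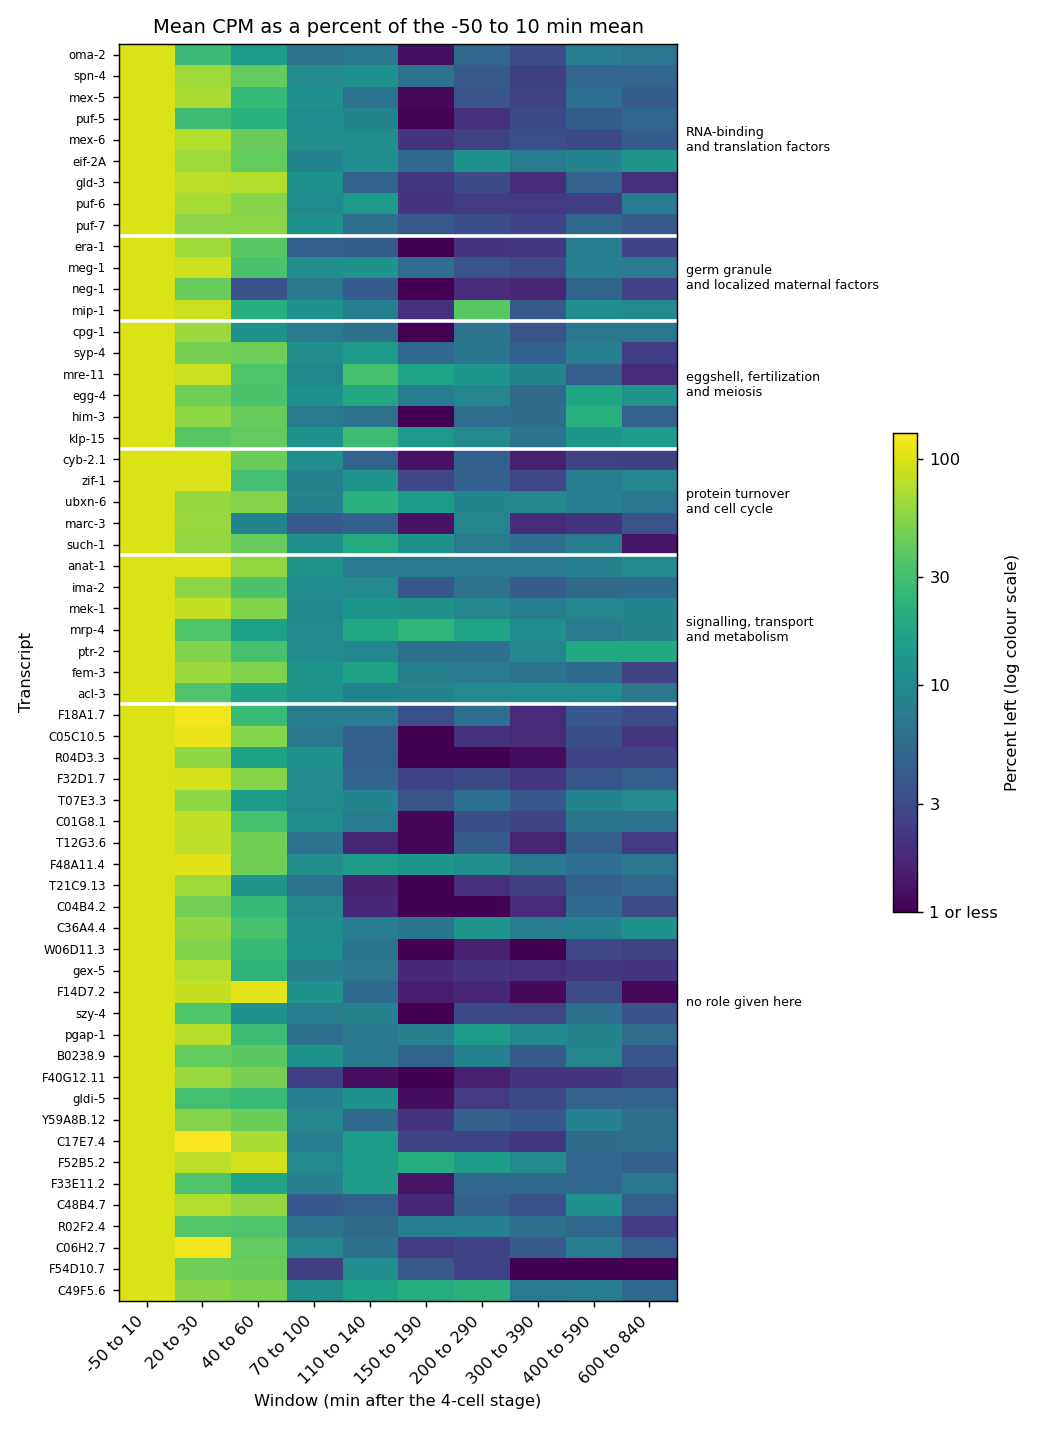
Mean CPM in each of 10 windows as a percent of the -50 to 10 min mean (log colour scale, values at or under 1% in the darkest colour) for the 59 transcripts, grouped by role. The columns of -50 to 10, 70 to 100 and 300 to 390 min were used to choose the genes, and the colours at 20 to 60 min show which messages went early, such as oma-2, and late, such as F14D7.2.

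The RNA-binding and translation factors were 9 of the 59 and included 4 of its 7 most abundant members. OMA-2, a zinc-finger protein needed for oocyte maturation, was encoded by a transcript at 841 to 4640 CPM at the start (median 2410) and 258 to 1380 CPM at 20 to 30 min (median 566). The 3 embryos of 40, 50 and 60 min had 545, 354 and 208 CPM of oma-2, and the 5 of 150 to 190 min had 32.0, 40.6, 32.4, 8.57 and 38.1 CPM. The mean over all 9 embryos of 20 to 30 min left 27.5% of the start mean of oma-2, the lowest such share of the 59, although within some stretches of sample numbers other members were lower.

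spn-4, which encodes an RNA-recognition-motif protein that controls translation of early fate messages, had 1340 to 3380 CPM at the start (median 2040) and 423 to 2930 CPM at 20 to 30 min (median 1510). It had 1460, 798 and 358 CPM at 40, 50 and 60 min, and 188, 123, 108, 120 and 134 CPM at 150 to 190 min. Of the 8 most abundant transcripts spn-4 kept the highest share at 150 to 190 min, 6.17%.

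mex-5 and mex-6 encode closely related zinc-finger proteins that set the anterior-posterior difference in the zygote. mex-5 had 778 to 1800 CPM at the start (median 1210), 339 to 1550 CPM at 20 to 30 min (median 871), and 464, 273 and 211 CPM at 40, 50 and 60 min. mex-6 had 300 to 1070 CPM at the start (median 706), 228 to 1120 CPM at 20 to 30 min (median 485), and 510 and 172 CPM at 40 and 60 min. At 70 to 100 min mex-5 was at 11.7% and mex-6 at 11.1% of the start mean, and at 150 to 190 min mex-5 stood at 9.23 to 16.8 CPM and mex-6 at 7.25 to 33.7 CPM.

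The Pumilio-family repressors puf-5, puf-6 and puf-7, which act during oocyte formation, were all among the 59. puf-5 was already uneven within the start window, at 2640 and 2110 CPM in the -50 and -30 min embryos and 333 to 972 CPM in the 6 embryos of 0 and 10 min. Its ratio of the 0 and 10 min mean to the -50 and -30 min mean was 0.284, the lowest of the 59, and 0.275 among embryos 95 to 139 alone. gldi-5, egg-4 and ima-2 followed at 0.353, 0.430 and 0.469, while the median over the 59 was 0.92, with 33 below 1. Among embryos 95 to 139 that median was 1.06, with 27 below 1. puf-6 averaged 203 ± 85.0 CPM and puf-7 153 ± 64.3 CPM at the start, and 139 ± 114 and 85.4 ± 42.2 CPM at 20 to 30 min. puf-6 and puf-7 are near-identical copies, and the deposited line for reads with several alignments holds 0 reads, so counts may be split between them.

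gld-3, which encodes a KH-domain partner of the cytoplasmic poly(A) polymerase, stayed longer: 371 to 669 CPM at the start, 180 to 697 CPM at 20 to 30 min, and 602, 363 and 212 CPM at 40, 50 and 60 min. That left 74.4% at 40 to 60 min and 12% at 70 to 100 min. eif-2A, a translation initiation factor, had 578 ± 145 CPM at the start and 52.2 ± 30.8 CPM at 70 to 100 min. Within this role group the medians left were 63.6%, 41.4%, 11%, 9.01% and 2.1% in the 5 windows from 20 to 190 min.

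Germ granule and localized maternal factors were 4 of the 59. meg-1, whose product is a component of the embryonic P granule, had 166 to 438 CPM at the start (median 349) and 193, 76.0 and 53.0 CPM at 40, 50 and 60 min. mip-1, which encodes a LOTUS-domain germ granule protein, had 134 ± 35.5 CPM at the start and 11.0 ± 8.77 CPM at 110 to 140 min. era-1, a message placed at the anterior of the embryo, averaged 483 ± 202 CPM at the start and 20.3 ± 28.3 CPM at 110 to 140 min.

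neg-1, which restrains endomesodermal fate in the anterior, had the lowest share left at 40 to 60 min of the 59, 3.33%, or 5.37% without the shallow start embryo 97, with 14.2, 8.00 and 3.15 CPM in the 3 embryos. It had 120 to 932 CPM at the start (median 146), with 932 CPM in the shallow embryo 97, and it still met the selection rule without embryos under 50000 gene counts. Its neighbour on the same strand of chromosome V, F32D1.7, is also among the 59 and kept 53.2% at 40 to 60 min. The neighbours averaged 8.47 CPM (neg-1) and 424 CPM (F32D1.7) in that window.

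Eggshell, fertilization and meiosis genes were 6 of the 59. cpg-1, a chondroitin proteoglycan of the eggshell and the most abundant of the 59, had 1380 to 4340 CPM in 7 start embryos and 14200 CPM in the shallow embryo 97. Its start mean was 4350 CPM, and 2930 CPM without that embryo. At 40, 50 and 60 min it had 877, 402 and 309 CPM, and at 150 to 190 min 41.2, 41.3, 85.6, 15.2 and 20.4 CPM. The others were less abundant: egg-4, a pseudophosphatase that holds the MBK-2 kinase back until the egg is activated, him-3 and syp-4 of the meiotic chromosome axis and synaptonemal complex, klp-15, a kinesin of the oocyte spindle, and mre-11, a DNA break repair nuclease, averaged 103 to 220 CPM at the start.

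Protein turnover and cell cycle genes were 5 of the 59. zif-1, the adaptor through which a CUL-2 ubiquitin ligase removes germline zinc-finger proteins from somatic cells, had 307 to 1050 CPM at the start (median 507) and 127 to 1100 CPM at 20 to 30 min (median 515). It then had 247, 185 and 65.6 CPM at 40, 50 and 60 min and 12.6 to 18.7 CPM at 150 to 190 min. marc-3, a RING-CH ubiquitin ligase, had 36.7, 11 and 8.83 CPM at 40, 50 and 60 min, 8.94% of its start mean of 212 CPM. Among embryos 95 to 139 marc-3 was at or under 50% of its start level from 40 min and zif-1 from 30 min. The 25% level was passed at 40 min by marc-3 and at 60 min by zif-1. These start levels include the shallow start embryo, and the times were not taken without it. cyb-2.1, a B-type cyclin, had 2280 CPM in the shallow 20 min embryo 99 and a median of 400 CPM at 20 to 30 min, against a median of 553 CPM at the start, and it had 396, 229 and 168 CPM at 40, 50 and 60 min. ubxn-6, a cofactor of the CDC-48 segregase, and such-1, a subunit of the anaphase-promoting complex, had 19.1 ± 17.3 and 12 ± 10.8 CPM at 70 to 100 min, against 218 ± 47.9 and 104 ± 18.2 CPM at the start.

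Signalling, transport and metabolism genes were 7 of the 59. ima-2, an importin alpha of the germline, averaged 741 ± 315 CPM at the start and 77.6 ± 35.2 CPM at 70 to 100 min. anat-1, an arylalkylamine N-acetyltransferase, averaged 751 ± 738 CPM at the start, and 506 CPM without embryo 97. mek-1 (a MAP kinase kinase), ptr-2 (a Patched-related membrane protein), mrp-4 (an ABC transporter), fem-3 (a sex determination gene) and acl-3 (an acyltransferase) averaged 137 to 358 CPM at the start. mrp-4 had the highest share left at 150 to 190 min of the 59, 24.2%, with 65.7, 78.0, 109, 69.2 and 60.2 CPM in the 5 embryos.

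The other 28 genes are given no role here and are named mostly by sequence. F18A1.7, the most abundant of them, had 969 to 1410 CPM in 7 start embryos and 4390 CPM in embryo 97, and 726, 319 and 196 CPM at 40, 50 and 60 min. C05C10.5 had 842 to 1880 CPM at the start (median 1420), and 1470, 442 and 363 CPM at 40, 50 and 60 min. R04D3.3 had 434 to 865 CPM in 7 start embryos and 2500 CPM in embryo 97, and met the rule no longer when embryos under 50000 gene counts were left out. With those embryos left out, 45 of the 59 still met the rule, and 7 other genes did. Besides R04D3.3, those that no longer met it were anat-1, cyb-2.1, T07E3.3, C01G8.1, mrp-4, W06D11.3, pgap-1, B0238.9, mip-1, such-1, klp-15, F54D10.7 and C49F5.6.

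The finest time series is that of embryos 95 to 139, with 1 embryo for each 10 min from 0 to 100 min. The time of loss was taken as the first time after 10 min from which a transcript stayed low through 100 min. Low meant at or under 50% of its mean over the -50, -30, 0 and 10 min embryos. By that measure 10 of the 59 were lost at 20 min, 25 by 30 min, 31 by 40 min, 51 by 50 min, 58 by 60 min and all 59 by 70 min, with a median of 40 min. For a drop to 25% the counts were 2, 6, 10, 22, 46 and 55 over the same times, with all 59 by 90 min and a median of 60 min. The start embryos and those of 70 to 100 min lie in windows of the rule. That all 59 reached these levels by 70 and 90 min therefore follows largely from the selection. Times of loss were not taken for other genes. The 20 and 30 min embryos of this series are shallow, so a low transcript can read 0 there by counting alone. The 0 min embryo, part of the mean that sets the 50% and 25% levels, is shallow too. klp-15 read 366 CPM in it, against 98.4 to 110 CPM in the -50, -30 and 10 min embryos. F14D7.2 read 66.6 CPM in it, against 231 to 277 CPM. The times of loss and their counts thus depend in part on that embryo, and were not taken without it.

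oma-2 and puf-5 were at 258 and 147 CPM at 20 min, against 2130 and 972 CPM at 10 min, and did not return to 50% afterwards. cpg-1 read 12000 CPM at 20 min and 931 CPM at 30 min. neg-1 was at 84.6 CPM at 30 min and 14.2 CPM at 40 min. spn-4, gld-3 and F32D1.7 had 1460, 602 and 720 CPM at 40 min, and 358, 212 and 168 CPM at 60 min. By this measure, with the shallow start embryo in its mean, F14D7.2 was the last of the 59. It had 250 CPM at 50 min, 155 CPM at 60 min and 61.3 CPM at 70 min.

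**Figure D3:**
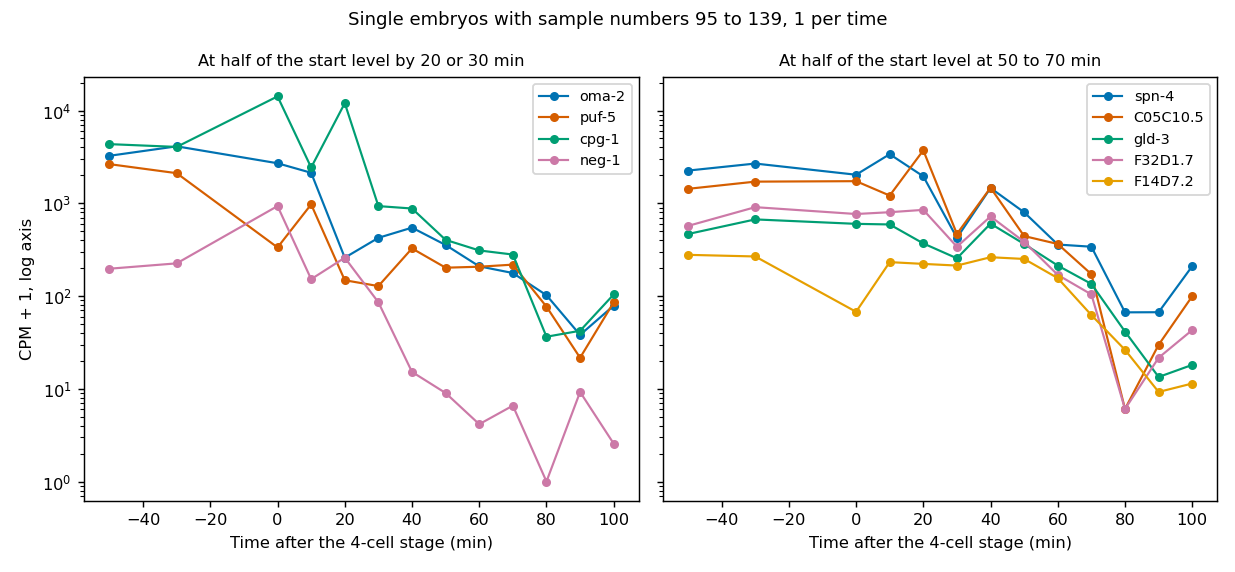
CPM plus 1 (log axis) in single embryos with sample numbers 95 to 139 from -50 to 100 min, 1 embryo per time, for 4 transcripts lost by 20 or 30 min (left) and 5 lost at 50 to 70 min (right). oma-2 reads 258 CPM (7 counts) in the shallow 20 min embryo, while spn-4 and gld-3 are still at 1460 and 602 CPM at 40 min.

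The shares left at 20 to 30 min differed among the 59 from 27.5% to 126%. The lowest were oma-2 (27.5%), puf-5 (27.9%), gldi-5 (31.1%), acl-3 and F33E11.2 (33.9% each) and mrp-4 (34.2%). The highest were C17E7.4 (126%), F18A1.7 and C06H2.7 (119% each), C05C10.5 (113%), F48A11.4 (103%) and anat-1 (99.5%). Taken within the 4 stretches of sample numbers that hold 0 or 10 min and 20 or 30 min embryos, the median share left was 69.7%, 97.3%, 77.0% and 53.7% in numbers 51 to 70, 71 to 82, 83 to 94 and 95 to 139. oma-2, gldi-5 and F33E11.2 were under the median of the 59 in all 4 stretches and C17E7.4 was over it in all 4, while the other 8 changed side in at least 1. Without embryos under 50000 gene counts F18A1.7 had 82.9%, C05C10.5 77.8% and F48A11.4 83.4% left, so their mean shares above 100% depend on shallow embryos. By window medians over all embryos these 3 had 106%, 84.4% and 95.9% left. C06H2.7 and C17E7.4 stayed above 100% without the shallow embryos, at 131% and 104%.

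The loss was tested in embryos that the selection did not use, 110 to 140 min against 20 to 30 min. All 59 transcripts passed the count filter, 47 fell, none rose and 12 were not called by edgeR's quasi-likelihood test (called when the Benjamini-Hochberg adjusted p was below 0.05 with a change of 2-fold or more). The background was 13.3% lower and 17.4% higher of 5637 genes tested. Among the other abundant genes 22.0% of 2510 were lower and 11.2% higher. The median log2 fold change was -2.53 over the 59, against 0.04 over all tested genes and -0.37 over the other abundant genes, and 58 of the 59 were below 0. In 18 of the 59 every 110 to 140 min embryo was below every 20 to 30 min embryo, which held for 3.6% of all tested genes.

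The 6 largest called falls were F40G12.11, T12G3.6, T21C9.13, C04B4.2, C05C10.5 and C06H2.7. T12G3.6 had 0 to 15.5 CPM in the 8 embryos of 110 to 140 min (median 8.38) and 117 to 848 CPM in the 9 of 20 to 30 min (median 346), with no overlap. Its log2 fold change was -5.01 ± 0.573 (SE, edgeR adjusted p = 4.11e-06). F40G12.11 averaged 2.26 CPM at 110 to 140 min, where 2 of 8 embryos had a count, against 113 CPM at 20 to 30 min (log2 fold change -5.39 ± 0.996, edgeR adjusted p = 3.50e-04). The other 4 had log2 fold changes of -4.87, -4.29, -4.22 and -4.08.

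Of the 9 RNA-binding and translation factors all 9 fell, with gld-3 at -3.69 ± 0.515, mex-5 at -3.05 ± 0.490, mex-6 at -2.42 ± 0.495 and spn-4 at -2.09 ± 0.383 on the log2 scale. oma-2 and puf-5, which had already dropped by 20 to 30 min, had smaller values, -1.59 ± 0.466 and -1.37 ± 0.516. oma-2 averaged 181 ± 148 CPM at 110 to 140 min and 699 ± 404 CPM at 20 to 30 min (edgeR adjusted p = 0.0119). All 4 germ granule and localized factors fell, with era-1 at -3.69 ± 0.747 and meg-1 at -2.53 ± 0.470 on the log2 scale. eif-2A fell with all embryos (-2.35) but had a log2 fold change of 2.19 within numbers 95 to 139, where the shallow 20 and 30 min embryos held 0 and 1 of its counts.

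Of the 6 eggshell, fertilization and meiosis genes 2 fell, cpg-1 (-2.81 ± 0.680) and him-3 (-2.88 ± 0.922), and 4 were not called. Those 4 were syp-4 (-1.50), mre-11 (-1.04), egg-4 (-0.86) and klp-15 (0.10), the highest value of the 59. klp-15 averaged 29.8 ± 24.9 CPM at 110 to 140 min and 38.2 ± 35.1 CPM at 20 to 30 min, and its near-identical relative klp-16 may share its reads. Of the turnover and cell cycle genes 4 of 5 fell, led by cyb-2.1 (-3.77 ± 0.585) and marc-3 (-3.09 ± 0.921). Of the signalling, transport and metabolism genes 5 of 7 fell, with mrp-4 (-0.49 ± 0.533) and acl-3 (-1.78 ± 0.830) not called. Of the 28 without a role given 23 fell.

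**Figure D4:**
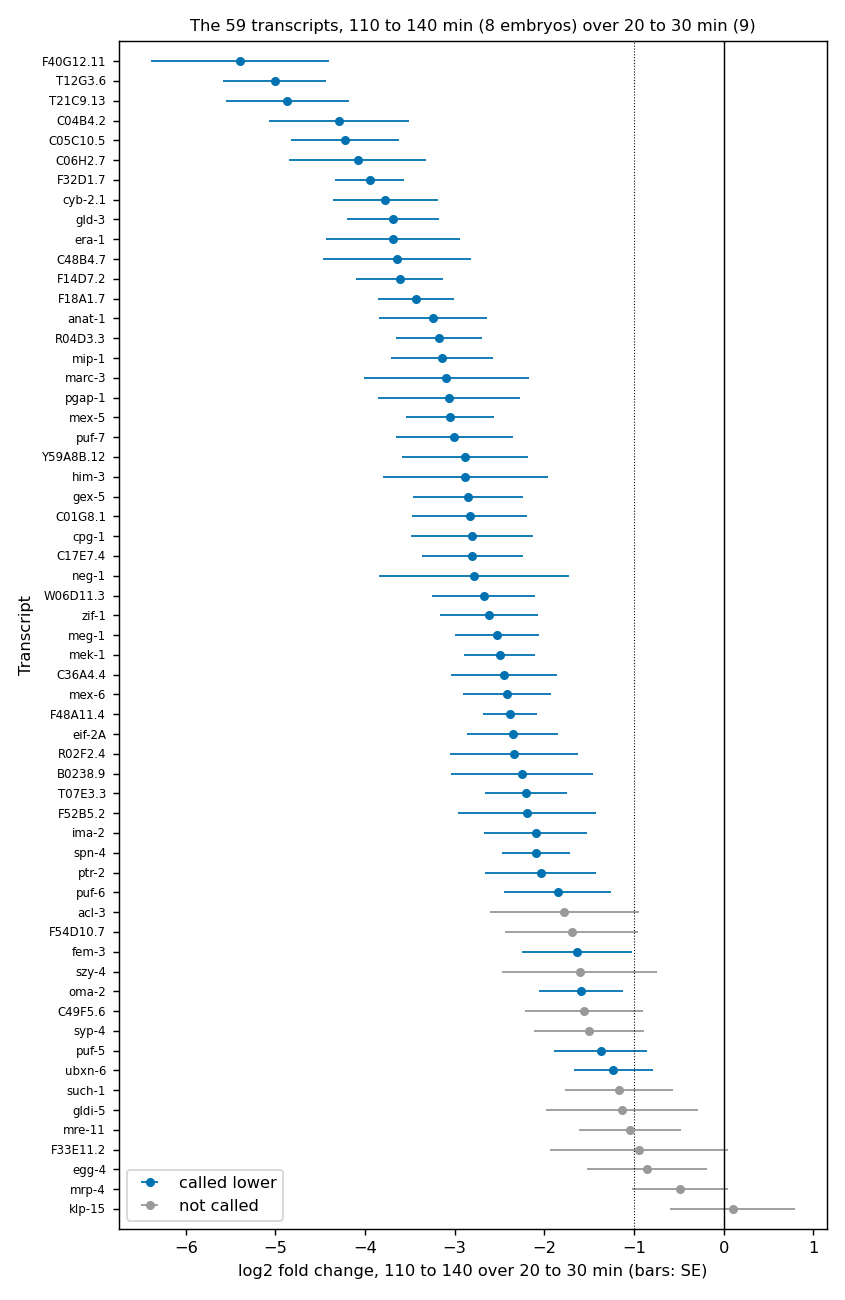
log2 fold change of each of the 59 transcripts, 110 to 140 min (8 embryos) over 20 to 30 min (9 embryos), with standard errors. Blue marks the 47 called lower and grey the 12 not called, the dotted line marks a fold of 2, and values run from -5.39 for F40G12.11 to 0.10 for klp-15.

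Depth, sample numbers and yolk counts moved with this comparison. Within numbers 95 to 139 alone, 4 embryos against the 2 shallow ones, 25 of 47 tested members were called lower, and 197 of all 5970 genes tested. A fit with the stretch of numbers as a covariate could use only numbers 51 to 70 and 95 to 139, 8 embryos against 4. It called 26 of 58 members lower, and 322 of all 6355 genes. The same 12 embryos without the covariate gave 27 of 58 members, and 261 of all 6355 genes. At 110 to 140 min the 4 embryos of numbers 51 to 70 had yolk shares of 0.405% to 3.31% and a median of 0.317% for the 59 transcripts, against 0.0216% to 0.462% and 0.151% in numbers 95 to 139. Without embryos over 0.5% yolk, 52 of 55 tested members were called lower, and 948 of all 5530 genes. The median log2 fold change of the members was then -3.40. The 6 yolk genes themselves had a median log2 fold change of 1.57 in the comparison of all embryos, with none called.

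Earlier, between 40 to 60 min and 20 to 30 min, edgeR called none of the 59 in either direction, against a background of 0.0307% lower and 0.614% higher of 6510 genes. At an unadjusted p under 0.05 in the edgeR test there were 15 of 59, all lower. No share over all genes is given for that limit, so this count cannot be read as a result about the 59. DESeq2 called 9 of the 59 lower, and 233 of all 6510 genes tested. The median log2 fold change was -0.68 over the 59 and -0.04 over all tested genes. mip-1 had 28.5 CPM at 40 to 60 min and 118 CPM at 20 to 30 min (log2 fold change -1.92, edgeR adjusted p = 0.100). T21C9.13 had 50.2 and 264 CPM in the 2 windows (-2.18, edgeR adjusted p = 0.121). Only 3 embryos, all from numbers 95 to 139, made up the later window, and scaled to spike-ins the median over the 59 was 0.16 with 0.74 over all genes.

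Later, between 150 to 190 min and 110 to 140 min, 44 of the 59 passed the count filter, 4 fell and none rose, against a background of 2.80% lower and 1.05% higher of 6646 genes. The 4 were W06D11.3, puf-5, oma-2 and mex-5. puf-5 had 13.5, 11.8, 12.6, 7.25 and 12.4 CPM at 150 to 190 min, all below the 19.5 to 358 CPM of the 110 to 140 min embryos (log2 fold change -3.11 ± 0.667, edgeR adjusted p = 0.0262). mex-5 had 13.5, 16.4, 12, 9.23 and 16.8 CPM at 150 to 190 min, overlapping the 13.0 to 196 CPM of the 110 to 140 min embryos (-2.55 ± 0.661, edgeR adjusted p = 0.0418). oma-2 had 8.57 to 40.6 CPM, below the 52.6 to 445 CPM of the earlier window (-2.62 ± 0.594, edgeR adjusted p = 0.0300). W06D11.3 averaged 0.446 and 15.9 CPM in the 2 windows (-4.92 ± 1.03, edgeR adjusted p = 0.0243).

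All 5 embryos of 150 to 190 min come from numbers 95 to 139, their yolk shares were 0.0199% to 0.0989% against 0.0216% to 3.31% at 110 to 140 min, and all 6 yolk genes were called lower in this comparison. Without embryos over 0.5% yolk 2 of 38 tested members were called lower, and 133 of all 6350 genes. Within numbers 95 to 139 these counts were 7 of 40 and 341 of 6603. Without any 1 of the 160, 170, 180 and 190 min embryos no member was called, and 1 to 32 of all genes were lower. The part of yolk counts in the result was not tested beyond these values.

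In the latest embryos, 600 to 840 min against 410 to 590 min within numbers 1 to 50 (25 against 18 embryos), 25 of the 59 passed the count filter and edgeR called none higher and none lower. The background was 12.6% higher and 11.1% lower of 5572 genes. None of the 25 had an unadjusted p under 0.05, and DESeq2 called none. The highest mean levels at 600 to 840 min were cpg-1 (296 ± 332 CPM), oma-2 (173 ± 198), spn-4 (109 ± 128), anat-1 (76.5 ± 46.1), eif-2A (71.8 ± 40.6) and ptr-2 (57.8 ± 57.7), over 25 embryos. For cpg-1, oma-2 and spn-4 the SD exceeded the mean, and 1740 CPM of cpg-1 was the highest single value. ptr-2 was at 19.1% of its start mean there, the highest share of the 59.

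A set of 6 lists of genes that work with or beside the 59 were counted in the comparison of 110 to 140 min with 20 to 30 min, where the background was 13.3% lower and 17.4% higher. Of maternal RNA-binding and fate regulators 20 of 26 tested fell and none rose, with a median log2 fold change of -1.97. Of the 30 listed 9 are among the 59, and all 9 fell, so these values include genes chosen for their loss. pos-1, a zinc-finger regulator more abundant than any of the 59 at 7920 CPM, fell by 2.76 on the log2 scale but had 14.6% left at 70 to 100 min and so missed the rule. mex-1, pie-1 and nos-2 also fell (-3.26, -2.09 and -1.56) and missed it with 19.5%, 14.2% and 27.6% left. skn-1 and pal-1, transcription factors of early fates, were not called (-0.16 and -0.11).

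Of oocyte meiosis, fertilization and eggshell genes 10 of 29 tested fell and 1, cpg-3, rose, and 3 of the 32 listed are among the 59. Of germ granule and small RNA factors 11 of 21 fell and none rose, and meg-1 is the only gene of this list among the 59.

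Of 31 tested genes of the deadenylation, decapping and decay machinery 2 fell (patr-1 and parn-2) and 4 rose (smg-1, alg-2, ain-1 and dcr-1), both shares below the background. The median was 0.05 on the log2 scale, and none of the list is among the 59. ccr-4, a deadenylase subunit of the CCR4-NOT complex, had 478 CPM at 110 to 140 min and 596 CPM at 20 to 30 min and was not called (0.01). Among ubiquitin ligase genes 5 of 23 fell and 2 rose, and among cell cycle regulators 4 of 29 fell and 5 rose, cyd-1 with the largest value (2.87). Of these lists 2 ubiquitin ligase genes and 1 cell cycle regulator are among the 59. The cell cycle counts are near the background in both directions. No sperm gene passed the count filter.

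Several of the 59 have close relatives that were not selected. oma-2 had 27.5%, 14.5%, 6.52% and 7.12% of its start mean left at 20 to 30, 40 to 60, 70 to 100 and 110 to 140 min. oma-1, which acts together with oma-2 in oocyte maturation, had 596 CPM at the start and 77.2%, 83.1%, 47.1% and 12.0% left in the same windows. By 150 to 190 min oma-2 had 1.19% and oma-1 1.86%. The 3 embryos of 40 to 60 min averaged 369 ± 169 CPM of oma-2 and 496 ± 11 CPM of oma-1, although oma-2 had the higher start mean, 2540 CPM. Differences between relatives were not tested.

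For the pairs below too, lower shares of the selected genes at 70 to 100 min, a window of the rule, follow from the selection. cpg-1 had 7.64% left at 70 to 100 min, against 13.6% for cpg-2, another eggshell proteoglycan. At 20 to 30 min the order of this pair turned with the summary: by means cpg-1 had 62.4% and cpg-2 20.8% left, and by window medians cpg-1 had 40.9% and cpg-2 50.3%. cyb-2.1 had 43.1% and 10.8% left at 40 to 60 and 70 to 100 min, against 45.1% and 15.2% for cyb-2.2. At 20 to 30 min the window medians left 72.4% of cyb-2.1 and 75.1% of cyb-2.2, while the means left 99.1% of cyb-2.1 and 74.4% of cyb-2.2. Without embryos under 50000 gene counts the means left 52.3% of cyb-2.1 and 58.9% of cyb-2.2. At 70 to 100 min puf-5, puf-6 and puf-7 kept 10.4% to 11.8%, against 27.9% for puf-3 and 14.7% for puf-11. In that window egg-4 kept 12.0% against 20.0% for egg-5, ima-2 kept 11% against 23.0% for ima-1, and mip-1 kept 12.3% against 14.4% for mip-2. egg-4 and egg-5 are near-identical, so their counts are uncertain.

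**Figure D5:**
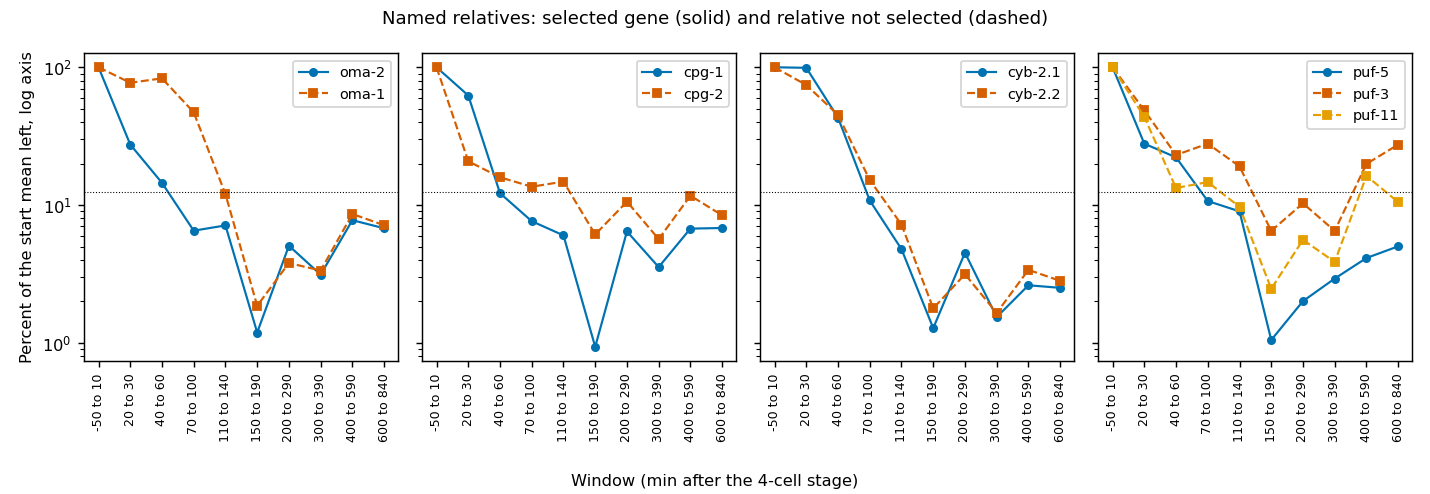
Percent of the -50 to 10 min mean left (log axis) in 10 windows for 4 selected genes (solid lines) and their relatives that were not selected (dashed lines), with the limit of 12.5% dotted. oma-2 has 14.5% left at 40 to 60 min, where oma-1 has 83.1%.

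The rule did not use position or structure. Of the 59 genes 7 (11.9%) lie on the X chromosome, against 2.87% of the other abundant genes and 13.7% of all genes. Chromosome V holds 15 (25%), against 14.1% and 25%, and chromosome I holds 8 (13.6%), against 24.5% and 14.2%. The median protein length was 430 residues for the 59, 369 for the other abundant genes and 333 for all genes. The median 3′ UTR was 228 bases (58 with an annotated one), against 187 and 124 bases. These are descriptions with no test, and gene lengths come from the WBcel235 annotation, which may differ from the one used for counting. Of the 59, 13 overlap another protein-coding gene, 12 of them on opposite strands, and no source used here says whether counting used strand.

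Just inside the start limit were C49F5.6, F54D10.7 and klp-15 at 100.2, 100.5 and 103.3 CPM, and just outside it memi-1, Y11D7A.7 and klc-1 at 96.64, 94.85 and 92.99 CPM. Without the shallow start embryo 97 C49F5.6, F54D10.7 and klp-15 had 90.8, 72.1 and 65.8 CPM, all under the limit. Just inside the limit at 70 to 100 min were acl-3, fem-3 and anat-1 with 12.46%, 12.40% and 12.37% left, and just outside it F02E8.4, ZC308.4 and gen-1 with 12.53%, 12.72% and 12.73%. For 300 to 390 min the nearest inside were mrp-4, F52B5.2 and acl-3 (10.77%, 10.28% and 10.25%), and the nearest outside pfn-1, usp28 and ikke-1 (14.98%, 16.48% and 17.26%).

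Across the 105 embryos outside the 3 windows of the rule, the 5 other genes whose log2(CPM + 10) followed the mean profile of the 59 most closely were clec-87, clec-88, ZC308.4, clec-91 and sip-1, with Pearson's r of 0.902, 0.899, 0.889, 0.885 and 0.878. The 59 themselves ran from 0.366 (acl-3) to 0.917 (C05C10.5) with a median of 0.753, their own values included in the mean. clec-87, a C-type lectin gene, had 4730 CPM at the start and 17.8% left at 70 to 100 min, and sip-1, a small heat shock protein of oocytes and embryos, had 5310 CPM and 32.8%. These embryos share time, depth and stretch of sample numbers, so the values are given as a description.

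CPM values are shares, so the same loss was read against the spike-in RNAs counted in each embryo, leaving out embryos with under 100 spike-in counts, among them 2 of the 9 of 20 to 30 min. Gene counts per spike-in count had medians of 388 at the start, 228 at 20 to 30 min (7 embryos) and 442 at 40 to 60 min. The medians were 220 at 70 to 100 min, 232 at 110 to 140 min and 390 at 150 to 190 min. Shares left per spike-in count are not given here for other genes. Per spike-in count the 59 had medians of 31.0%, 37.0%, 4.77%, 3.90% and 2.38% left at 20 to 30, 40 to 60, 70 to 100, 110 to 140 and 150 to 190 min.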

How the data were processed

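Single-embryo CEL-Seq libraries of 139 embryos were deposited as 1 table of raw counts per gene, and the authors applied no normalization to these counts, per the values of the deposited table (whole numbers with unequal totals). Per the submitters' processing notes CASAVA 1.8, Bowtie2 2.1.0 and HTSeq 0.5.4p3 were used upstream. The annotation and build used for counting are "not given in the sources used here". No molecular identifiers are mentioned in the labels, so counts may hold amplified copies, and depth speaks to counting error only. The 92 spike-in rows and 5 counter rows (52.6% of all reads in the table belong to the counters) were kept out of library sizes and tests. Symbols came from RefSeq locus tags (20063 of 20687 matched).

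The 59 genes and the gene lists were chosen with earlier results of these data known. Comparisons used edgeR 4.0.16 in R 4.3.3 (TMM, filterByExpr with minimum count 10, quasi-likelihood F-test, Benjamini-Hochberg over all genes tested), called below an adjusted p of 0.05 with a change of 2-fold or more, with only the embryos of both windows in each fit. The procedure was tested on simulated data first. DESeq2 1.42.0, RLE factors, no filter, spike-in library sizes, single stretches of numbers and leaving out embryos were alternatives. p-values measure the spread between single embryos. Standard errors are the log2 fold change divided by the root of its F statistic.

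Genes named are the 8 most abundant of the 59, the 6 fastest and 6 slowest by 20 to 30 min, the 4 with the lowest ratio within the start window, the 6 largest called changes per comparison, the 6 highest at 600 to 840 min, list members, relatives, genes near each limit and the 5 most alike, and others are named where a count or role group turned on them, chosen after their values were seen. Roles are textbook knowledge, and the role groups were made after the members were seen. Promoter motifs and sequences were not analysed here.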

Additional observations from a re-analysis of the deposited data

Results flagged for a closer look

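Over 9 measures (the share of the 59 transcripts and the 8 most abundant of them) in the 5 windows with 5 to 9 embryos, 45 groups were checked for 1 embryo far from the rest, and 10 stood apart. Chance marks about 1 in 20 such groups. Of these, 4 rest on the shallow 0 min embryo with number 97 and its 30049 gene counts: a share of 5.11% (next highest 3.42%), 14200 CPM of cpg-1 (next 4340), 4390 CPM of F18A1.7 (next 1410) and 2500 CPM of R04D3.3 (next 865). The shallow 20 min embryo with number 99 stood out with 12000 CPM of cpg-1 (next 3580) and 2060 CPM of R04D3.3 (next 580). puf-5 was highest in the 20 min embryo with number 72 (749 CPM, next 424) and in the 140 min embryo with number 59 (358 CPM, next 116), whose yolk share was 2.41%. The 180 min embryo with number 115 was lowest in oma-2 (8.57 CPM, next 32.0) and in puf-5 (7.25 CPM, next 11.8). What set these embryos apart was not tested.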

How the results depend on the processing

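Of the 59 transcripts, 47 were called lower at 110 to 140 min against 20 to 30 min. Within numbers 95 to 139 the count was 25 of 47 tested, with 197 of all 5970 genes lower. With the stretch of numbers as a covariate, a fit of 8 against 4 embryos, it was 26 of 58 (322 of 6355 genes). Those 12 embryos without the covariate gave 27 of 58 (261 of 6355 genes). The cause was not tested beyond that pair of fits. The other settings gave 46 to 52, with 710 to 1203 of all genes lower. Leaving out each embryo in turn gave 39 to 49, with 598 to 850 of all genes lower. Within numbers 95 to 139 eif-2A and ubxn-6 turned to 2.19 and 0.65 on the log2 scale. At 40 to 60 min against 20 to 30 min the count of 0 became 9 with DESeq2 (233 of 6510 genes lower). It was 1 without embryos under 50000 gene counts (38 of 6870 genes lower). With each 40 to 60 min embryo left out it ran from 0 to 2. It was 2 without the 40 min embryo (2 of 6733 genes lower). It was 0 without either of the later embryos of that window (0 of 6707 and 0 of 6681 genes lower). At 150 to 190 min against 110 to 140 min the count of 4 became 7 with RLE factors (241 of 6646 genes lower). It was 16 with DESeq2 (579 of 6646) and 6 without the count filter (256 of 14173). It was 1 with spike-in library sizes (43 of 6724) and 7 within numbers 95 to 139 (341 of 6603). Without embryos over 0.5% yolk it was 2 (133 of 6350). With each 150 to 190 min embryo left out it ran from 0 to 3, with 1 to 112 of all genes lower. The late comparison gave 0 in both directions under all alternatives run. The rule selected 38 genes with a start minimum of 200 CPM, 293 with a limit of 25% left, 6 with a limit of 6.25%, and 144 from embryos 95 to 139 alone, 51 of them among the 59. The median share left moved to 31.0% at 20 to 30 min and 4.77% at 70 to 100 min with spike-ins, and to 6.80% at 70 to 100 min and 1.59% at 400 to 590 min within numbers 95 to 139. The median time of loss was 60 min for a drop to 25%, and times of loss were not taken without the shallow start embryo. The alternatives on shallow, yolk-rich, latest and spike-poor embryos and the fit of 12 embryos without the covariate were chosen after seeing the data. No paired analysis was possible because the labels number each embryo once and name no pairs, and the stretches of numbers entered as the covariate above. In the shallow embryos, those under 50000 gene counts, where 1 count is worth over 20 CPM, low members cannot be told from 0; without them the share left of cyb-2.1 and F54D10.7 at 20 to 30 min and of neg-1 and klp-15 at 40 to 60 min moved by over 1.5 times.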

Other observations

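The 29 genes that were as abundant at the start and as low at 70 to 100 min, but above the limit again at 300 to 390 min, are described here beside the 59 without a test. Of the 29, 1 (3.45%) lies on chromosome X, near the 2.87% of all genes abundant at the start other than the 59, and against 11.9% of the 59. Their median protein length was 518 residues and their median 3′ UTR 266 bases, against 430 residues and 228 bases for the 59. The other abundant genes had 369 residues and 187 bases.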
